A study of Mus musculus with 51 samples.

Results

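The colony-stimulating factor system of lung macrophages was followed through 6 genes in alveolar macrophages from mice given fungal spores. The 6 genes were the ligands Csf1 and Csf2, the receptor Csf1r, and the receptor chains Csf2ra, Csf2rb and Csf2rb2. They were chosen by gene symbol in the array's annotation, which gave 12 of the 22626 tested probe sets and 6 of 12393 measured genes. Where a gene had several probe sets, the one with the highest mean log2 signal over the 51 arrays is called its main probe set.

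Csf1 encodes M-CSF, and its receptor CSF1R is a tyrosine kinase that keeps macrophages alive and sets their identity. Csf2 encodes GM-CSF, which in the lung comes largely from the epithelium and is needed for alveolar macrophages to mature and to clear surfactant. Its receptor pairs an alpha chain that binds the ligand, from Csf2ra, with the shared beta chain from Csf2rb, which also serves interleukin-3 and interleukin-5. The mouse has in addition Csf2rb2, a close copy that serves interleukin-3 alone.

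Alveolar macrophages were collected fresh from the lungs of C57Bl/6 mice (wild type, WT) or gp91phox-/- mice (KO), whose phagocytes lack the membrane subunit of the NADPH oxidase. Both genotypes had groups untreated at 0 h, and mock, e6 and e7 groups at 2 h and 4 h. The latter names stand for conidia, the spores of the mould Aspergillus fumigatus, instilled into the lung at doses that differ by a factor of 10. WT mice also had a group given polystyrene beads for 4 h. The groups held 4 WT arrays or 3 KO arrays each, and the bead group held 2. The study asked whether the macrophages of a normal and an immune-compromised host respond differently. The labels call the arrays biological replicates and name no age, sex or number of mice per array, so a p-value refers to the spread between arrays as labelled. For the mock arrays of WT mice at 4 h the labels disagree, since one field names conidia and the title mock; their group was taken from the title.

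The signal of an array was a linear intensity, and the mean of each array after trimming 2% at each end lay between 500.18 and 500.24. All values below are log2 of this signal unless a linear signal is named. Signals under 50 are called low. Levels of different probe sets were not compared with each other. Cybb, the gene disrupted in KO mice, lay between 10.59 and 12.12 on WT arrays and between 6.77 and 9.06 on KO arrays, so the labels of genotype were borne out on every array. All 13 measured markers of alveolar macrophages, such as Marco, Siglecf and Pparg, were above 50 on every array. The summed signal of 11 neutrophil markers was 26708, 12637 and 8907 on 3 arrays, namely WT 4 h mock replicate 3, e6 replicate 4 and e7 replicate 3, and at most 3844 on the other arrays. Of 11 T and NK cell markers Cd2 was above 50 on every array, Lat was under 50 on 15 arrays, Klrd1 on 24 and Cd4 on 41, while Cd3e was under 50 on all 51. Of 9 endothelial and stromal markers Kdr was under 50 on 32 arrays, Col1a2 on 39 and Col1a1 on 42, and Pecam1, Tie1 and Dcn on all 51. In such bulk samples, fewer cells of a type and less RNA per cell cannot be told apart.

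The 300 bases around the start of transcription (250 before, 50 after; RefSeq, GRCm38.p6) are shown for Csf1, the member that differed most between genotypes, and for Csf2ra, whose probe sets went opposite ways. The Csf1 window is chr3:107760420-107760719 and the Csf2ra window is chr19:61228369-61228668, both on the minus strand.
Csf1: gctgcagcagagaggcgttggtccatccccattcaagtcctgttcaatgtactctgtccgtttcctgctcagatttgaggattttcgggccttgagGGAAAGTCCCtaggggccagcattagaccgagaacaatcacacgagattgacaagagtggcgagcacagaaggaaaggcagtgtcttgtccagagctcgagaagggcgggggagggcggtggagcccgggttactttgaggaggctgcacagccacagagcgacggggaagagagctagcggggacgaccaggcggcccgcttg
Csf2ra: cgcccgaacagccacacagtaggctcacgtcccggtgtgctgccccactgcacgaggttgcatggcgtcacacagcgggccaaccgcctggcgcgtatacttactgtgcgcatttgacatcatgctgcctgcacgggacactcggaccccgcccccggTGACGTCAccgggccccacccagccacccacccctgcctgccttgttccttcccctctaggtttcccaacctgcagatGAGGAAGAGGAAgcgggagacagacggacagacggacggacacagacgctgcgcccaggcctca
Capitals mark matches, on either strand, to the letters bound by factors active in macrophages: GAGGAA (PU.1), TGANTCA (AP-1), TTGCNNAA (C/EBP), TTCNNNGAA (STAT), TGACGTCA (CRE) and the NF-kB consensus. These motifs were chosen after the earlier results were known. In the Csf1 window the capitals are 1 NF-kB match at bases 97 to 106. In the Csf2ra window they are 2 PU.1 matches side by side at bases 237 to 242 and 243 to 248, and 1 CRE match, whose letters read the same on both strands, at bases 159 to 166. Among 32851 promoter windows of this length, 8.46% held the NF-kB consensus, 28.3% GAGGAA and 1.79% TGACGTCA. A match describes the letters and is no evidence of a bound site.

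Levels across the 15 groups came first. Csf1r, the M-CSF receptor, was measured well above low signal on every array, with a lowest, median and highest value of 12.44, 12.99 and 13.54 and a linear signal of 5541 to 11870. Its 15 group means spanned 0.72, from WT 4 h e7 at the bottom to KO 4 h e6 at the top. Neighbouring groups in this order overlapped in all 14 pairs, so the order of neighbours is not resolved.

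The GM-CSF receptor chains were also above 50 on all 51 arrays. Csf2ra (1420703_at) lay between 8.46 and 11.68 with a median of 10.86, and its lowest group mean was again WT 4 h e7. Csf2rb lay between 8.43 and 10.52 (median 9.68), lowest in WT 2 h mock and highest in KO 2 h e7. Csf2rb2 lay between 11.22 and 12.39 (median 11.80), lowest in WT 2 h mock and highest in WT 4 h beads. Of 14 neighbouring pairs, 14 overlapped for Csf2ra, 13 for Csf2rb and 14 for Csf2rb2.

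The ligands were measured far less well. Csf1 lay between 4.12 and 8.58 (median 6.41), and its linear signal was under 50 on 9 of 30 WT arrays and on 1 of 21 KO arrays. Its 4 highest group means were all KO groups (4 h e6, 2 h e7, 4 h mock and 4 h e7), and KO 4 h e7 did not overlap with the next group, KO 2 h e6. Csf2 was under 50 on all 51 arrays, with linear signals from 1.06 to 16.1. At that level its values carry no order, and GM-CSF transcript was not detectable above low signal in any group.

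**Figure D1:**
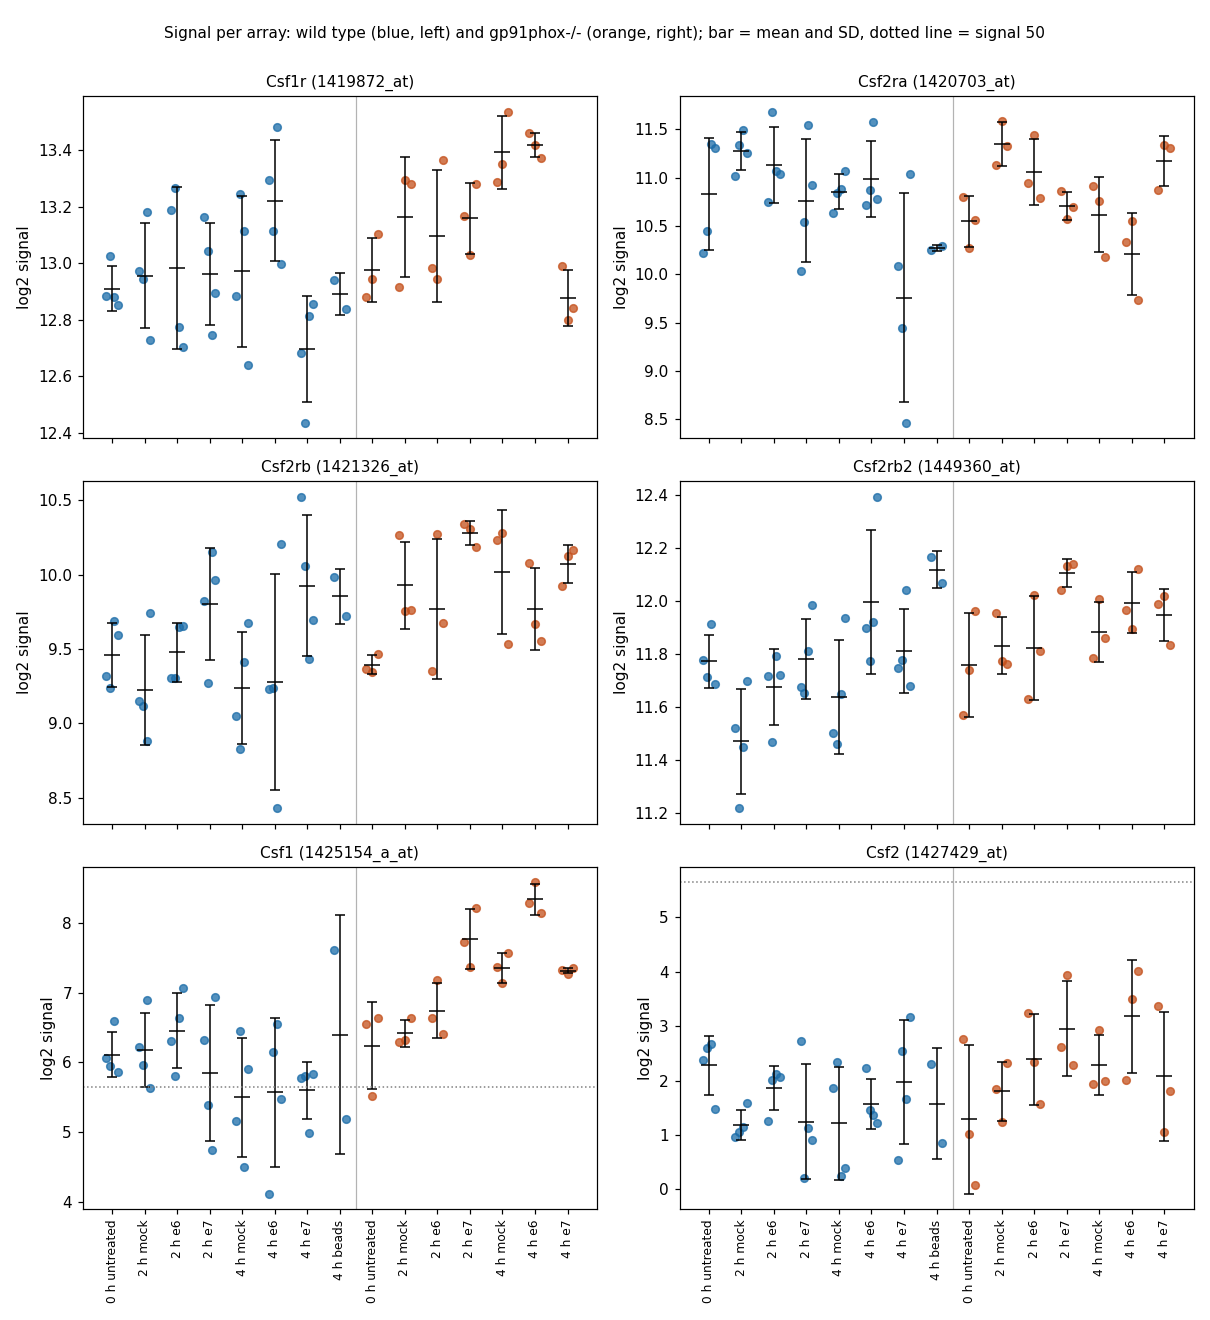
Log2 signal (y) of the main probe set of each of the 6 genes in the 15 groups (x), WT in blue and KO in orange, 1 point per array with the group mean and SD in black. Csf1r stays between 12.44 and 13.54, Csf1 rises above 7 mainly in 4 KO groups, and Csf2 stays below the dotted line of signal 50 throughout.

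Conidia against mock instillation asked whether the spores changed these genes. Of the 6 main probe sets, 1 passed in 1 of 8 such comparisons: Csf2ra in WT at 4 h with e7 conidia. The fit was limma over all probe sets, with p-values adjusted by Benjamini-Hochberg and a call at an adjusted p under 0.05, two-sided. In that comparison 15.5% of all probe sets were called, so 1 member of 6 is close to the background. The same fit called 0% in WT 2 h e6, 1.61% in WT 2 h e7, 0.00884% in WT 4 h e6, 0% in KO 2 h e6, 8.65% in KO 2 h e7, 0.0796% in KO 4 h e6 and 0.00442% in KO 4 h e7. Over these 7 comparisons, no member passed and between 0 and 2 of the 6 had an unadjusted limma p under 0.05. The comparison with 2 was WT 2 h e7, where 15.8% of all probe sets had an unadjusted p under 0.05.

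Csf2ra is the alpha chain that gives the receptor its specificity for GM-CSF. Its main probe set 1420703_at read 10.63, 10.84, 10.88 and 11.07 on the WT 4 h mock arrays and 10.09, 9.44, 8.46 and 11.04 on the e7 arrays. Of the 4 e7 arrays, 3 lay below every mock array and 1 lay among them. The mean fell from 10.86 ± 0.18 to 9.76 ± 1.08 (SD, n = 4 each), a difference of -1.10 ± 0.34 (SE; adjusted p = 0.0206, limma).

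The second probe set for the same gene moved the other way. On 1420704_at the mock arrays read 8.01, 8.46, 8.19 and 8.37, and the e7 arrays read 9.15, 8.98, 10.13 and 9.04. Every e7 array lay above every mock array, with a difference of 1.07 ± 0.25 (limma adjusted p = 0.00271). The annotation ties both probe sets to 1 transcript sequence, so the data give no single direction for Csf2ra.

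The low dose was set against the same 4 e7 arrays, so it gives no independent support. The e6 arrays read 10.72, 10.87, 11.58 and 10.78 on 1420703_at and 8.24, 8.39, 8.13 and 8.39 on 1420704_at. In e7 against e6 the differences were -1.23 ± 0.34 (limma adjusted p = 0.00918) and 1.04 ± 0.25 (adjusted p = 0.00294). Neither probe set passed between e6 and mock in WT at 4 h (0.13 ± 0.34 and 0.03 ± 0.25, both adjusted p = 0.999).

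In KO mice at 4 h the e7 arrays read 10.87, 11.34 and 11.31 on 1420703_at against 10.91, 10.76 and 10.18 in mock, and overlapped with them. On 1420704_at they read 8.44, 8.19 and 8.25 against 8.84, 8.0 and 8.77. The differences were 0.56 ± 0.39 and -0.24 ± 0.28 (limma adjusted p = 0.843 and 0.918). The difference between the genotypes in this response was 1.65 ± 0.51 on 1420703_at and -1.31 ± 0.38 on 1420704_at. It missed the threshold for both (adjusted p = 0.0934 and 0.0771), in a comparison where 0.19% of all probe sets were called. It was called under 3 of 26 alternatives on 1420703_at and under 3 of 25 on 1420704_at. For both, these were the filter at a mean signal of 50, array weights, and the fit without WT 4 h e7 replicate 4. That fit left out the e7 array that lay among the mock arrays on 1420703_at (2.08, adjusted p = 0.00327, and -1.41, adjusted p = 0.0161).

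The Csf2ra fall in WT at 4 h rested on a few arrays. Without e7 replicate 3 the difference on 1420703_at was -0.67 (adjusted p = 0.212), without e7 replicate 2 it was -0.99 (adjusted p = 0.0815), and without mock replicate 4 it was -1.03 (adjusted p = 0.0542). Without e7 replicates 2 and 3 together it was -0.29 (adjusted p = 0.794), and 1420704_at then rose by 0.84 (adjusted p = 0.128). Without the 3 arrays highest in neutrophil markers the values were -0.66 (adjusted p = 0.295) and 0.78 (adjusted p = 0.0784). In a fit of only the 8 arrays compared, neither passed (adjusted p = 0.344 and 0.272). The rise on 1420704_at was still called in each fit with 1 array left out.

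Control probes near the 3' and the 5' end of a transcript give a log2 ratio that grows as RNA is shorter, and this ratio moved with both probe sets. Over 51 arrays it correlated with 1420703_at at r = -0.60 and with 1420704_at at r = 0.51, as a description of arrays that share groups and scaling. The 2 probe sets correlated with each other at r = -0.59, and at -0.72 over the 30 WT arrays and -0.28 over the 21 KO arrays. On the WT 4 h e7 arrays the ratio was 1.64, 2.34, 3.83 and 1.26 for replicates 1 to 4, against 1.19 to 2.34 in mock. With the ratio as a covariate the differences were -0.87 (limma adjusted p = 0.0206) and 0.94 (adjusted p = 0.00339), both still called. Between the genotypes in the 4 h e7 response they were then 1.11 (adjusted p = 0.246) and -1.02 (adjusted p = 0.209).

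**Figure D2:**
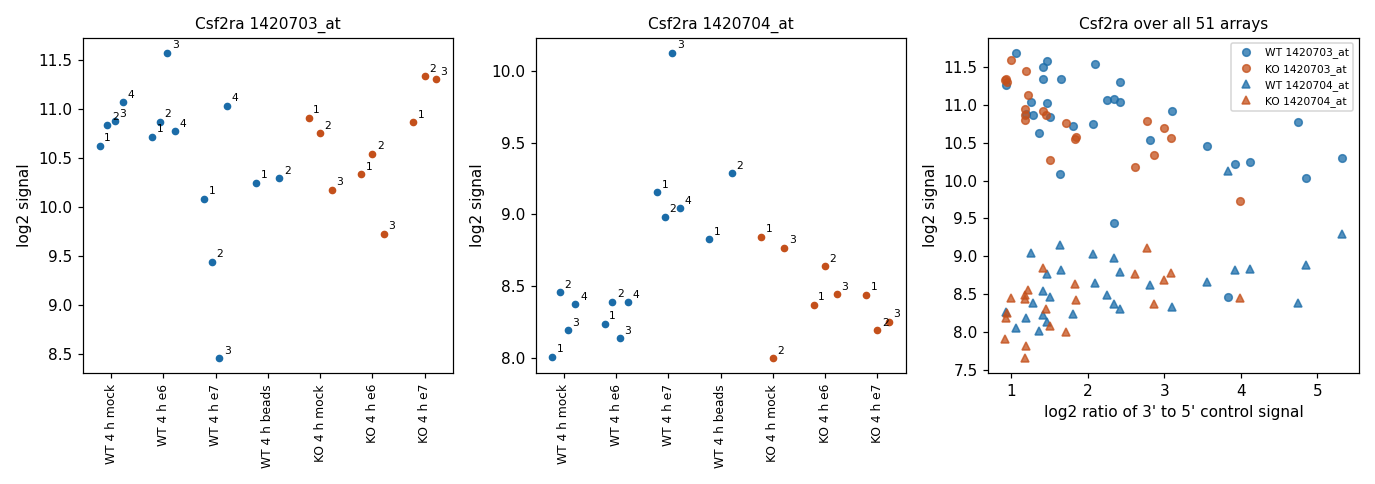
The left and middle panels show log2 signal (y) of the Csf2ra probe sets 1420703_at and 1420704_at on the 4 h arrays (x), with replicate numbers beside the points, WT in blue and KO in orange. The right panel plots both probe sets (circles and triangles) against the 3' to 5' log2 ratio of control signal over all 51 arrays, with r = -0.60 and 0.51.

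Csf2rb, the shared beta chain, was higher with e7 conidia in WT at 4 h without passing. The mock arrays read 9.05, 8.83, 9.41 and 9.68, and the e7 arrays read 10.52, 10.06, 9.44 and 9.69. Of the e7 arrays, 3 lay above every mock array. The difference was 0.69 ± 0.26 (limma adjusted p = 0.0714), and it passed under 7 of 19 alternatives, among them quantile normalization (0.74, adjusted p = 0.0366). Without e7 replicate 1 it was 0.49 (adjusted p = 0.253). In WT at 2 h it was 0.58 ± 0.26 (adjusted p = 0.266), and in KO 0.35 ± 0.30 at 2 h and 0.05 ± 0.30 at 4 h (adjusted p = 0.485 and 0.989).

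Csf2rb2, the interleukin-3 copy of the beta chain, neighbours Csf2rb in the RefSeq annotation with no protein-coding gene between them. Probes for such near-identical copies can share signal, so the split between them is uncertain. The 2 probe sets correlated at r = 0.58 over 51 arrays. In WT, e7 conidia moved Csf2rb2 by 0.31 ± 0.13 at 2 h and 0.17 ± 0.13 at 4 h (limma adjusted p = 0.209 and 0.414). With e6 at 4 h it was 0.36 ± 0.13 above mock (adjusted p = 0.788).

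Csf1r did not pass in any of the 8 comparisons with mock. Its widest separation was in KO at 4 h, where every e7 array lay below every mock array (13.29, 13.35 and 13.54) by a mean of 0.51 ± 0.16 on the log2 scale, that is -0.51 (limma adjusted p = 0.406). The 3' to 5' ratio described above also separated these arrays, at 1.18, 0.93 and 0.94 with e7 and 1.41, 1.72 and 2.61 in mock. Over the 21 KO arrays Csf1r correlated with that ratio at r = 0.60. The other Csf1r probe sets did not share a direction in this comparison. On 1423593_a_at every e7 array (10.02 to 10.16) lay above every mock array (9.58 to 9.80), by 0.40 ± 0.33 (adjusted p = 0.876), and on 1419873_s_at the difference was -0.20 ± 0.19 (adjusted p = 0.896). In WT at 4 h the main Csf1r probe set read 12.89, 13.25, 13.11 and 12.64 in mock, 13.29, 13.11, 13.48 and 13.0 with e6 and 12.68, 12.44, 12.81 and 12.86 with e7. The e7 arrays overlapped with mock and all lay below the e6 arrays. Against mock the e7 difference was -0.27 ± 0.14 (limma adjusted p = 0.201), and against e6 it was -0.52 ± 0.14 (adjusted p = 0.00793), a 1.44-fold lower signal.

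A second probe set for Csf1r, 1419873_s_at, also fell between e6 and e7 in WT at 4 h (-0.60 ± 0.17, limma adjusted p = 0.0107), and the remaining one, 1423593_a_at, read -0.69 ± 0.29 (adjusted p = 0.102). With Csf2ra, Csf1r made 2 of 6 members called in this comparison, where 16.4% of all probe sets were called. Without e7 replicate 2 the Csf1r difference was -0.44 (adjusted p = 0.057), without e7 replicates 2 and 3 it was -0.45 (adjusted p = 0.182), and in a fit of only these 8 arrays its adjusted p was 0.346. In KO at 4 h the e7 arrays read 12.99, 12.80 and 12.84 and the e6 arrays 13.46, 13.42 and 13.37. They did not overlap, and the difference was -0.54 ± 0.16 (adjusted p = 0.0949). The 3' to 5' ratio described above also separated these groups, at 2.86, 1.83 and 3.99 with e6 and 1.18, 0.93 and 0.94 with e7. Over the 21 KO arrays it correlated with Csf1r at r = 0.60, and with it as a covariate the difference was -0.53 (adjusted p = 0.162). The other Csf1r probe sets were -0.02 ± 0.19 and 0.33 ± 0.33 there, and did not pass.

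In the other dose comparisons no member passed. The share of all probe sets that passed was 0% in WT at 2 h, 7.06% in KO at 2 h and 0.897% in KO at 4 h, and 0, 0 and 2 of the 6 members had an unadjusted limma p under 0.05, as did 7.02%, 23.9% and 15.5% of all probe sets. Csf1r at 2 h differed between doses by -0.02 ± 0.14 in WT and 0.06 ± 0.16 in KO.

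Csf1 did not pass in WT macrophages at either dose or time (differences from -0.33 to 0.28, SE 0.46, none called). In KO at 2 h the e7 arrays read 7.72, 7.37 and 8.22 and the mock arrays 6.29, 6.32 and 6.64, without overlap. The difference of 1.35 ± 0.53 missed the threshold (limma adjusted p = 0.0983). It passed under 4 of 18 alternatives. These were 16 added to every signal (1.21, adjusted p = 0.0431), signals under 50 set to 50 (1.35, adjusted p = 0.0165), array weights (1.35, adjusted p = 0.0364), and that floor after quantile normalization. The 14 that did not pass included quantile normalization alone. The median difference over all probe sets was 0.26 as deposited and 0.01 after quantile normalization. The other 3 Csf1 probe sets read -0.53 ± 0.68, 0.08 ± 1.07 and 0.61 ± 0.91 in this comparison and none passed. In KO at 4 h the e6 arrays also lay above all mock arrays, with a difference of 0.98 ± 0.53 (adjusted p = 0.698). Between the genotypes, the 2 h e7 response of the main probe set differed by 1.68 ± 0.70 (adjusted p = 0.22).

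**Figure D3:**
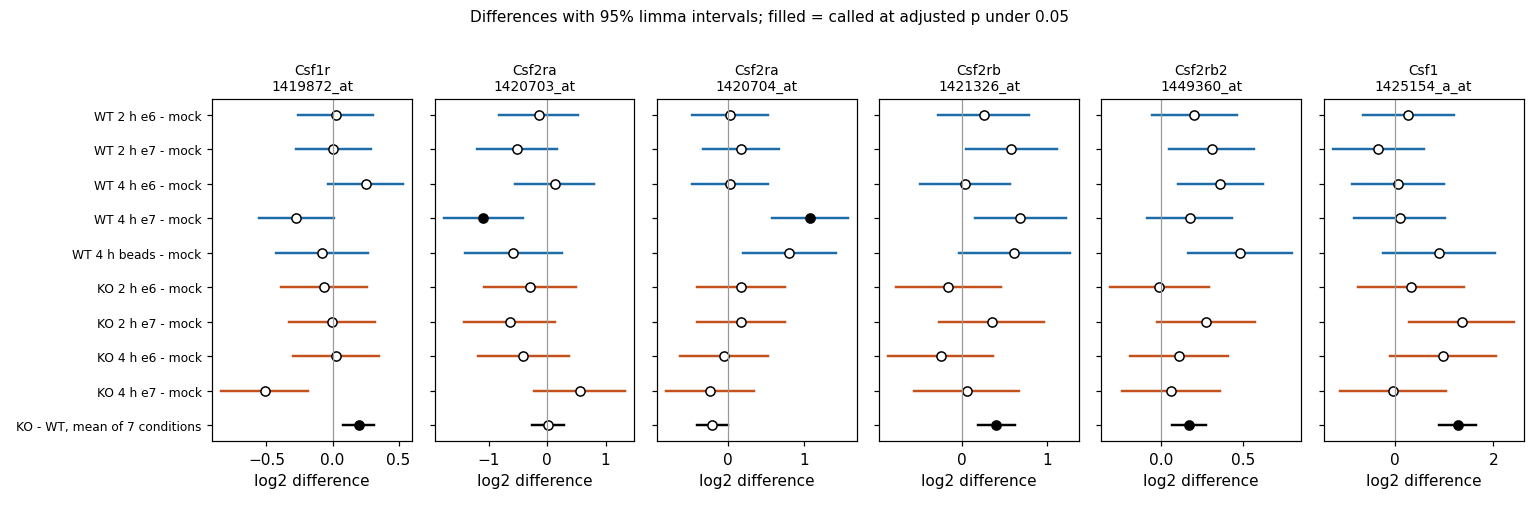
Log2 differences (x) with 95% limma intervals for 6 probe sets, by comparison (y). WT comparisons are blue, KO comparisons orange and KO minus WT black, and filled points were called; the opposite filled points of the Csf2ra probe sets in WT 4 h e7 minus mock are -1.10 and 1.07.

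Beads tested whether any particle moved these genes. No member passed in beads against mock, where 1.14% of all probe sets were called and 1 of the 6 members had an unadjusted limma p under 0.05. The share of all probe sets under 0.05 unadjusted was 17.4%, so 1 of 6 is at the background. That member was Csf2rb2, whose bead arrays read 12.17 and 12.07 and lay above the mock arrays at 11.5, 11.46, 11.65 and 11.94. The difference was 0.48 ± 0.16 (adjusted p = 0.103). Csf2rb2 passed with signals under 50 set to 50 (adjusted p = 0.0202) and without mock replicate 4 (0.58, adjusted p = 0.0432). The 2 bead arrays also had the 3' to 5' ratios 4.11 and 5.32, above the 1.19 to 2.34 of mock, and Csf2rb2 correlated with this ratio at r = 0.44 over 51 arrays. With the ratio as a covariate the difference was 0.22 (adjusted p = 0.699).

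Conidia against beads called no member either, with 0.327% of all probe sets called for e6 and 3.59% for e7, and 0 of 6 members with an unadjusted limma p under 0.05 in both (15.8% and 20.4% of all probe sets). The interval of the e7 difference ran from -1.35 to 0.32 for Csf2ra (1420703_at) and from -0.58 to 0.72 for Csf2rb, so these 2 bead arrays leave a wide interval. Mock instillation against untreated mice called no member: the share of all probe sets that passed was 0.00442% (2 h) and 0.0133% (4 h) in WT, and 0.00442% and 1.2% in KO. In KO at 4 h, 3 of the 6 members had an unadjusted limma p under 0.05, beside 15% of all probe sets, and all 3 were higher after mock: Csf1 by 1.11 ± 0.53, Csf1r by 0.42 ± 0.16 and Csf2rb by 0.62 ± 0.30 (adjusted p = 0.312, 0.198 and 0.326). For no member did the difference between the genotypes in the response to conidia pass, with 0%, 1.45% and 0.00442% of probe sets called for 2 h e6, 2 h e7 and 4 h e6.

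Averaged across the 7 conditions that the genotypes share, 5 of 6 main probe sets were higher in KO and none was lower; 33.4% of all probe sets were called in either direction and 21.9% were higher in KO. Csf1 had the largest difference, 1.27 ± 0.19 or 2.42-fold (limma adjusted p = 1.53e-06). Csf2rb was higher by 0.40 ± 0.11 (adjusted p = 0.00373), Csf1r by 0.20 ± 0.06 (adjusted p = 0.00738) and Csf2rb2 by 0.17 ± 0.05 (adjusted p = 0.0103). Csf2 was called at 0.66 ± 0.24 (adjusted p = 0.0335) from signals that were low on every array, and with signals under 50 set to 50 nothing is left of it. Csf2ra showed 0.01 ± 0.14 on 1420703_at and -0.21 ± 0.10 on 1420704_at (adjusted p = 0.971 and 0.107).

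The median difference over all probe sets was 0.11 as deposited and -0.03 after quantile normalization, and the share of calls that were higher in KO went from 65.4% to 43.3%. The members under that scaling were as follows. Csf1 was higher by 1.14, Csf2rb by 0.43, Csf1r by 0.19 and Csf2rb2 by 0.18, all still called, and Csf2 by 0.16 (adjusted p = 0.671). Among probe sets with a mean log2 between 6 and 7, where Csf1 lies, 24.9% were called higher in KO and the median difference was 0.08 as deposited, against 13.2% and -0.11 after quantile normalization.

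Csf1 was then read in each condition. On the main probe set, 1425154_a_at, untreated WT arrays read 6.06, 5.94, 6.59 and 5.86 and untreated KO arrays 6.55, 5.52 and 6.64. They overlapped, as did the genotypes after mock and e6 at 2 h, with KO minus WT of 0.13, 0.24 and 0.29 in these 3 conditions. At 4 h after mock the WT arrays read 5.16, 6.45, 4.5 and 5.90 and the KO arrays 7.36, 7.14 and 7.56. At 4 h with e6 the WT arrays read 4.12, 6.14, 6.54 and 5.47 and the KO arrays 8.29, 8.58 and 8.14. Every KO array lay above every WT array in these groups and also with e7 at both times, with differences of 1.92 at 2 h e7, 1.85 at 4 h mock, 2.77 at 4 h e6 and 1.72 at 4 h e7. The share of all probe sets that separate the genotypes in this way was not counted, so separation alone says nothing particular about Csf1.

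The other 3 Csf1 probe sets gave the same direction over the 7 conditions: 1.68 ± 0.24 on 1460220_a_at (limma adjusted p = 7.98e-07), 1.2 ± 0.38 on 1448914_a_at (adjusted p = 0.0138) and 1.89 ± 0.32 on 1425155_x_at (adjusted p = 1.88e-05). They did not share the pattern over conditions. On 1448914_a_at untreated KO mice were at -1.22 ± 1.0 relative to WT (adjusted p = 0.667) with overlap, and the difference after mock at 4 h was 0.19. On 1425155_x_at the untreated difference was 1.47 ± 0.85 (adjusted p = 0.475), also with overlap. On 1460220_a_at untreated KO arrays, at 6.63, 6.24 and 6.14, already lay above untreated WT arrays, at 5.45, 5.33, 4.29 and 5.47, and the difference was 1.2 ± 0.63 (adjusted p = 0.409). On that probe set WT 4 h mock replicate 3, the array highest in neutrophil markers, read 8.47 against 3.74 to 6.10 on the other mock arrays. Over the 30 WT arrays the main probe set correlated with 1460220_a_at at r = -0.38. On 1425155_x_at all 30 WT arrays were under 50, and on 1448914_a_at 26 of 30 were. Both have a mean log2 between 4 and 6, where 27.7% of all probe sets were called higher in KO. The median difference in that range was 0.31 as deposited and -0.05 after quantile normalization. The annotation ties 1425155_x_at to the same sequence as the main probe set, and 1448914_a_at to that of 1460220_a_at.

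Markers of other cells were read in the same arrays, and on some measures they were higher in the groups high in Csf1. The 9 genes of endothelium and stroma summed to a signal of 347 to 457 in KO 4 h e6, 237 to 367 in KO 2 h e7, 237 to 331 in KO 4 h mock and 190 to 255 in KO 4 h e7, the 4 groups highest in Csf1. They summed to 131 to 153 in untreated KO mice and 92.2 to 366 on WT arrays, where the top value was a bead array. The mean log2 signal of the 11 T and NK cell genes was 5.92 to 6.12 in KO 4 h e6, 5.45 to 6.11 in KO 4 h mock, 5.29 to 5.64 in KO 2 h e7 and 4.75 to 5.42 in KO 4 h e7, against 4.50 to 5.04 in untreated KO mice and 3.58 to 5.15 on WT arrays. On these measures both lists lay above untreated KO mice in at least 3 of these 4 groups without overlap, largely at low signal. In KO 2 h e6, where Csf1 was lower, the T and NK mean log2 was 4.59 to 6.05. The summed T and NK signal gave no such rise. It was 3804 to 4757 in KO 4 h e6, 4665 to 5281 in KO 4 h mock, 3723 to 4335 in KO 2 h e7 and 4663 to 4823 in KO 4 h e7. Untreated KO mice lay at 4417 to 6692. Among all probe sets with a mean log2 under 4, the median KO minus WT difference was 0.51 as deposited and 0.04 after quantile normalization. The 13 genes of lung epithelium summed to 1912 to 6971 in WT and 1984 to 6380 in KO. The 3 B cell genes summed to 52.2 to 52.9 in untreated KO mice. They summed to 93.4 to 159 in KO 4 h e6 and 69.9 to 76.9 in KO 2 h e7. In KO 4 h mock and 4 h e7 they summed to 18.2 to 109 and 60.0 to 95.4. The 5 basophil and mast cell genes summed to 54.1 to 72.8 in untreated KO mice. Their sums were 74.9 to 180 in KO 4 h e6 and 101 to 155 in KO 2 h e7. In KO 4 h mock and 4 h e7 these sums were 95.6 to 104 and 106 to 143. The 7 monocyte and dendritic cell genes summed to 163 to 440.5 in WT and 204 to 864 in KO. They lay at 500.1 to 864 in KO 4 h e6, which overlapped with 312 to 658 in untreated KO mice. The 11 neutrophil genes summed to 1157 to 2527 in untreated KO mice and 2671 to 3001 in KO 4 h e6. In KO 2 h e7 they summed to 1546 to 2472. In KO 4 h mock and 4 h e7 they summed to 1890 to 3844 and 1870 to 2959. The part of these cells in the Csf1 difference was not tested.

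In untreated mice alone, 1.99% of all probe sets were called between the genotypes and no member passed, with 0 of 6 at an unadjusted limma p under 0.05 (13.7% of all probe sets). Csf1r differed there by 0.07 ± 0.15, Csf2rb by -0.06 ± 0.28 and Csf2rb2 by -0.02 ± 0.14 (adjusted p = 0.913, 0.96 and 0.982). Separations in single conditions are descriptions only, since the share of all probe sets without overlap was not counted for these or other pairs of groups. Csf2rb separated the genotypes without overlap after mock and after e7 at 2 h. After mock at 2 h its WT arrays read 9.15, 9.12, 8.88 and 9.74 and its KO arrays 10.27, 9.75 and 9.76. Csf2rb2 did the same in the same conditions, with KO minus WT of 0.36 and 0.33. Csf1r separated them after mock at 4 h, where WT lay at 12.64 to 13.25 and KO at 13.29 to 13.54. Csf2ra separated them in the other direction, lower in KO, on 1420703_at at 4 h with e6 (KO minus WT -0.78) and on 1420704_at at 4 h with e7 (-1.03). With e7 at 4 h 1420703_at was 1.41 higher in KO with overlap, so its mean of 0.01 over the conditions joins differences of opposite sign. For Csf1r the genotype difference was not called on its other probe sets (0.07 ± 0.07 and 0.25 ± 0.12, adjusted p = 0.468 and 0.0978).

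**Figure D4:**
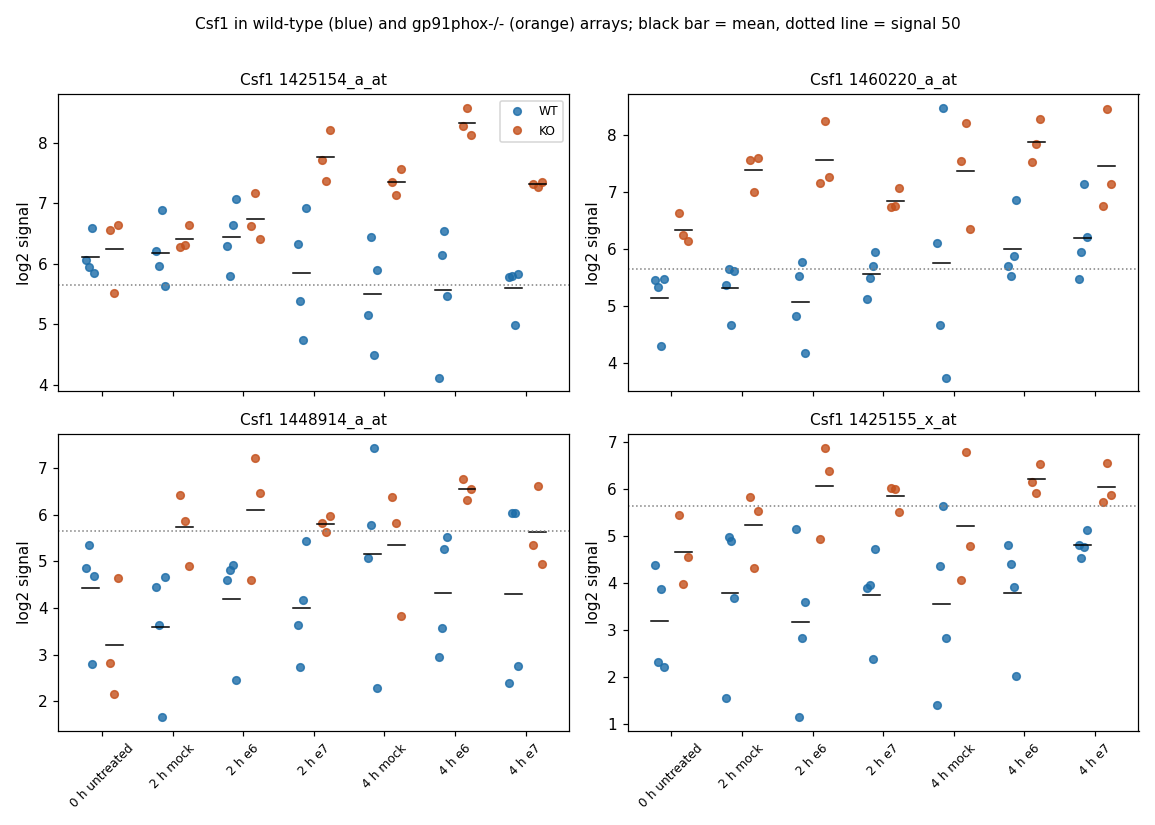
Log2 signal (y) of the 4 Csf1 probe sets by condition (x), WT in blue and KO in orange, 1 point per array with the mean as a black bar and signal 50 as a dotted line. On 1425154_a_at KO and WT arrays do not overlap at 2 h e7 and in the 3 groups at 4 h, and on 1460220_a_at they are already apart in untreated mice.

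The genes around these receptors were read from a list of 58 genes of the pathway, of which 53 were measured. In WT at 4 h with e7 conidia 7 were higher and 6 lower, beside 17.5% called of all genes. Of the 13 feedback and target genes of cytokine receptors, 3 were called higher and 1 lower, and the others were not called. Among the others were Cish (0.14, limma adjusted p = 0.75) and Socs2 (-0.21, adjusted p = 0.437). Those that rose were Socs3, an inhibitor of JAK signalling, by 2.62 ± 0.52 (limma adjusted p = 0.000702), the kinase Pim1 by 1.16 ± 0.26 (adjusted p = 0.00248) and the phosphatase Dusp6 by 0.92 ± 0.32 (adjusted p = 0.046). Bhlhe40, a transcription factor that responds to GM-CSF, rose by 0.82 ± 0.15 (adjusted p = 0.000422), and Egr2 by 0.70 ± 0.20 (adjusted p = 0.0136). The adaptor Shc1 rose by 0.54 ± 0.19 and the phosphatase Ptpn11 by 0.48 ± 0.15 (adjusted p = 0.0484 and 0.0236). After quantile normalization Dusp6 no longer passed. Without the 3 arrays highest in neutrophil markers, 5 genes of the list were higher and 0 lower. The share of all genes called in that fit was not counted. Socs3 (3.06), Pim1 (1.45), Bhlhe40 (0.91) and Egr2 (0.76) were still called (adjusted p = 1.08e-05, 0.00118, 0.00209 and 0.0389), and Ets2 was called in addition (1.42, adjusted p = 0.00137). With e7 against beads, 0 of the 53 genes were called higher and 3 lower, beside 3.98% of all genes called. Socs3 was 1.04 above beads (limma adjusted p = 0.361) and Pim1 0.78 (adjusted p = 0.159).

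Against mock in WT at 4 h with e7, those that fell were Spi1, which encodes the macrophage factor PU.1, by 1.12 ± 0.34 on the log2 scale (limma adjusted p = 0.0198), and Myc by 1.19 ± 0.33 (adjusted p = 0.0107). The kinases Fes and Jak1 fell by 1.01 ± 0.25 and 0.65 ± 0.22, and the inhibitory phosphatase Ptpn6 by 1.0 ± 0.25 (adjusted p = 0.00501, 0.0383 and 0.006). Csf3r, the G-CSF receptor and also a neutrophil marker, fell by 1.05 ± 0.30 (adjusted p = 0.0129). The mock group holds the array highest in neutrophil markers, replicate 3. Without the 3 such arrays no fall was called: Csf3r was at -0.84 (adjusted p = 0.0583), Spi1 at -0.81 (0.225), Myc at -0.71 (0.223), Fes at -0.65 (0.117), Jak1 at -0.27 (0.549) and Ptpn6 at -0.54 (0.123). Of these 3 arrays, e7 replicate 3 and e6 replicate 4 also had the highest 3' to 5' ratio of their groups (3.83 and 4.75), and mock replicate 3 the lowest (1.19). Whether neutrophils, RNA length or the smaller groups lay behind the lost calls was not tested. After quantile normalization Jak1 no longer passed. The median difference of the 53 genes was -0.04, and that of all genes was -0.08.

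At 2 h no gene of the list passed in the genotype difference of the response. In WT with e7, 2 genes were called, beside 1.76% of all genes, and both were higher: Cish, a STAT5 target, by 0.97 ± 0.22 (limma adjusted p = 0.0169) and Ets2 by 1.54 ± 0.38 (adjusted p = 0.029). In KO with e7, 6 were called and all were higher, beside 8.54% of all genes. They were Stat5b by 1.01 ± 0.22 (adjusted p = 0.00448), Stat3 by 0.95 ± 0.23 (adjusted p = 0.0101), Inpp5d by 0.73 ± 0.21 (adjusted p = 0.0266), Cebpb by 0.97 ± 0.20 (adjusted p = 0.00266), Runx1 by 1.01 ± 0.33 (adjusted p = 0.0494) and Il3. Il3 has a mean log2 of 1.53, so its call came from low signal, and neither Il3 nor Runx1 passed after quantile normalization, where Klf4 and Egr2 were called in their place and the count was again 6. In this comparison the median of all genes was 0.23 as deposited and 0.02 after quantile normalization.

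Between e7 and e6 in WT at 4 h, 3 of the 53 genes were higher and 9 lower, beside 18.6% of all genes called. After quantile normalization 4 were higher and 7 lower, and without the 3 arrays highest in neutrophil markers 3 and 3, of which 3 were called in both fits. For the fit without these arrays the share of all genes called was not counted. Spi1 was lower with e7 by 1.28 ± 0.34 on the log2 scale (that is -1.28, limma adjusted p = 0.00759), and so was Irf8, another macrophage factor (-0.62 ± 0.22, adjusted p = 0.0414). Without those 3 arrays Spi1 was at -1.26 (adjusted p = 0.028) and Irf8 at -0.53 (adjusted p = 0.206). Between the genotypes over 7 conditions, 8 were higher and 12 lower in KO, beside 35% of all genes called, and 5 and 13 after quantile normalization. Il3ra, the alpha chain that pairs with both beta chains for interleukin-3, was higher by 1.04 ± 0.17 (adjusted p = 1.29e-05) at a mean log2 of 5.37, and Bhlhe40 by 0.30 ± 0.06 (adjusted p = 0.000251). Csf3r was lower (-0.75 ± 0.12, adjusted p = 9.21e-06), as were Socs2 (-0.34 ± 0.07, adjusted p = 0.000135) and Klf4 (-0.28 ± 0.05, adjusted p = 5.41e-05).

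The genes whose group means ran most alike with each member were found by Pearson r over the 15 groups among about 6272 genes with a mean log2 of at least 7. For Csf2ra (1420703_at) they were Necap2, Anapc2 and Ap2s1, at r = 0.95, 0.94 and 0.93, and 0.91, 0.88 and 0.90 over the 51 arrays. For Csf2rb they were Gna13, Tgif1 and Rnf19b (0.90, 0.86 and 0.86, and 0.72, 0.68 and 0.71 over arrays), and for Csf2rb2 Gclm, Endod1 and Twsg1 (0.86, 0.86 and 0.85, and 0.50, 0.49 and 0.72). For Csf1r they were Fam220a, Ciao2b and Saraf (0.90, 0.87 and 0.87, and 0.63, 0.71 and 0.48 over arrays), and for Csf1 Nat9, Rab15 and Echdc3 (0.94, 0.94 and 0.93, and 0.62, 0.73 and 0.60). None is given for Csf2, whose values carry no order. Groups share arrays, scaling and RNA quality, so these likenesses are descriptions only.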

How the data were processed

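Per the labels, 100 ng of total RNA per sample was amplified in a pair of cycles, labelled and put on Affymetrix mouse arrays. The values the authors deposited are linear signal intensity, 1 per probe set and array. GCOS and RMA are named in the submitters' processing notes with no version or role. Any genome build behind the probe sets is not given in the sources used here.

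Log2 of the deposited intensity was fitted with limma 3.58.1 in R 4.3.3, with 1 mean per group, 51 arrays and 25 comparisons. The 64 control probe sets were left out, and no filter or pseudocount was used. An error after ± is limma's standard error unless named as SD. Genes were named through the platform annotation, and of the tested probe sets 20380 had 1 symbol, 691 several and 1555 none. The members and lists were chosen with earlier results of these data known. The named genes were the 6 members, members of the pathway and marker lists, Cybb, and the 3 genes most alike to each member. The lists were written from general knowledge. Of the 6 members, 4 have a promoter in the RefSeq table used.

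The fit was tested on simulated data with 200 changed probe sets among 22626. With the arrays of WT 4 h e7 against mock, the test found 34% of the 2-fold changes, 55% of the 4-fold changes and 1 of 22426 unchanged probe sets; with those of KO 2 h e7 against mock, 38%, 60% and 2. The data had more calls in these comparisons, 3512 and 1957, and the simulated noise was independent between probe sets. The rates therefore need not hold for the data, and shifts of whole arrays were not simulated. The number of arrays limits the precision. Alternatives covered scaling, low signals, the arrays fitted, array weights, a 3' to 5' covariate, a replicate block, left-out arrays and other probe sets. A further 2 were chosen after seeing the data: quantile normalization with a floor of 50, and leaving out the 3 arrays highest in neutrophil markers.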

Additional observations from a re-analysis of the deposited data

Results flagged for a closer look

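In 3 of 49 groups of 4 arrays (7 probe sets in 7 groups), 1 array stood apart from the other 3 by more than Dixon's 95% limit. Chance gives about 5% of groups. Csf2ra on 1420704_at read 10.13 on WT 4 h e7 replicate 3, and 8.98 to 9.15 on the others. The same array, 1 of the 3 highest in neutrophil markers, read 4.98 for Csf1 on 1425154_a_at, where the others read 5.78 to 5.83. Csf2 read 1.26 on WT 2 h e6 replicate 1 and 2.01 to 2.13 on the others, all at low signal.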

How the results depend on the processing

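Csf1, higher in KO over the 7 conditions, was called under all 63 alternatives run, between 1.0 and 1.89 (1.19 to 1.32 when 1 array was left out), as were Csf2rb and Csf2rb2 under all 60 of theirs. Most of these alternatives only left out 1 array, so they are not separate checks. Csf2ra on 1420703_at in WT at 4 h with e7 against mock ran from -1.52 to -0.67 when 1 array was left out. It was not called in a fit of the compared groups only (-1.10), without e7 replicates 2 and 3 (-0.29) and without the 3 arrays highest in neutrophil markers (-0.66), and its sign turned on the other probe set (1.07, and 1.04 for e7 against e6). On 1420704_at the rise was called under 16 of 19 alternatives, among them each fit with 1 array left out. Under the 3 settings just named its values were 1.07, 0.84 and 0.78, none called. The cause was not tested.

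The count of called members in WT 4 h e7 against mock was 2 with quantile normalization, with the filter at a mean signal of 50 and with array weights, 3 with quantile normalization and the floor of 50, 0 with only the compared groups or without e7 replicates 2 and 3, and 0 to 2 when 1 array was left out. For e7 against e6 it was 0 with only the compared groups and without e7 replicates 2 and 3, and 1 to 3 when 1 array was left out. It was 1, instead of 0, in KO 2 h e7 against mock with 16 added, the floor, array weights, and the floor after quantile normalization; in beads against mock with the floor, the floor after quantile normalization and the replicate block (0 to 1 when 1 array was left out); in e7 against beads with the 3' to 5' covariate; in KO 4 h e7 against e6 with the floor and array weights; and in the genotype difference of the 4 h e7 response with the filter and array weights (0 to 1). In WT 4 h e7 against mock, 3060 of 22626 probe sets were called after quantile normalization, against 3512 as deposited. The share of all probe sets called under the other alternatives was not counted, so these counts are descriptions only. With the floor the group means of Csf2 spanned 0. After quantile normalization the pathway list had 1 gene called in KO 4 h e6 against mock and in e7 against beads, 0 in KO 4 h mock against untreated and 3 in KO 4 h e7 against e6. Without the 3 arrays highest in neutrophil markers it had 5 instead of 13 in WT 4 h e7 against mock, 6 instead of 12 in e7 against e6, 1 in e6 against mock and in e6 against beads, 2 in beads against mock and 0 in e7 against beads. The share of all genes called in that fit was not counted.

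Same-numbered arrays showed almost no shared deviation (median r of 0.01 over 98 WT pairs and 0.01 over 63 KO pairs, 0 over 0.1). The median over other pairs was -0.005 in WT and -0.004 in KO. A correlation over all probe sets would not show a pairing that moved few genes, so the check does not settle it. With the replicate block Csf2rb2 in beads against mock was 0.58 (limma adjusted p = 0.0263) and Csf1 in KO against WT 1.34. Of 3397 further values of single members under the alternatives, 26 lost a call, 35 gained one and 1 reversed (Csf2ra in e7 against e6, given above), and 337 uncalled values changed sign. Low signal limits Csf1 and leaves Csf2 without a measured level.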
